A study of Homo sapiens with 13 samples.

Results

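Untreated acute lymphoblastic leukemia (ALL) cell lines that resist methotrexate (MTX) were compared with lines that are sensitive to it, gene by gene across the transcriptome. The classes follow the MTX concentration of median inhibition (IC50) after 96 h, taken by line name from the study's viability assays. The 3 resistant lines, with an IC50 of at least 30 nM, were Nalm16, a B-cell precursor ALL (BCP-ALL) line, and HPB-ALL and Jurkat, both T-cell ALL (T-ALL) lines. The 5 sensitive lines, with an IC50 under 12.5 nM, were Nalm6 and REH (BCP-ALL) and ALL-SIL, P12-ICHIKAWA and TALL-1 (T-ALL). These are 8 of the 13 lines of the series, and the 5 lines between the thresholds, 697, RS4,11 and Nalm30 (BCP-ALL) and CCRF-CEM and Molt4 (T-ALL), are described beside them. Each line is an established culture and was hybridized once to an Affymetrix HG-U133 Plus 2.0 array before any drug was added, so every value is a level in untreated cells and the error is the spread between lines. The IC50 values themselves are not reported here.

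MTX is a folate analogue that enters cells through the reduced folate carrier and is kept inside by a tail of glutamate residues. It blocks the regeneration of tetrahydrofolate, the carrier of one-carbon units, and so starves cells of thymidylate and purines, which dividing lymphoblasts need for DNA synthesis. Resistance is classically linked to less uptake, less glutamylation, more efflux or more of the target enzyme. Glutathione and its enzymes, the theme of the study, are left aside here.

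Levels are on the log2 scale of the deposited signals, whose floor is 4, and a difference of 1 is a factor of 2 in signal. B-lineage markers averaged 9.57 to 10.44 in the BCP-ALL lines and 4.79 to 5.76 in the T-ALL lines, and T-lineage markers averaged 8.16 to 10.54 in T-ALL and 5.23 to 5.86 in BCP-ALL, as the labels have it. Myeloid, NK cell, erythroid and stromal markers averaged at most 5.88 in any line. A pair of features of the arrays touches every result. P12-ICHIKAWA and TALL-1, both sensitive, had profiles with a Pearson correlation of 0.993 across genes, against at most 0.959 for any other pair, so they add less than 2 separate lines would. Nalm16, the single resistant BCP-ALL line, gave the dimmest array: over the tested genes its median was 6.84 against 7.18 to 7.50 in the other 12 lines, and 1581 of its genes lay within 1 log2 unit of the floor against 577 to 1140 elsewhere. Its part in the class differences was not tested, and values without it, which rest on T-ALL alone, are given beside the counts.

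No gene separated the classes after correction for the number of genes. Of 11762 genes above the array median in at least 3 of the 8 lines, 0 were higher (0%) and 0 lower (0%) at a Benjamini-Hochberg adjusted p under 0.05 in limma with lineage in the model. At an unadjusted p under 0.05, 347 genes were higher in the resistant lines (2.95%) and 768 were lower (6.53%). Lower genes made up 68.9% of these, but 55.2% after quantile normalization (572 higher, 706 lower), which moved the median difference of all genes from -0.06 to 0.06. Without Nalm16 there were 784 higher and 547 lower genes, or 41.1% lower. With P12-ICHIKAWA and TALL-1 averaged there were 201 and 538. The overall lean to lower levels therefore turned with 1 line and shrank with the scaling, and below each gene is read by its own values in the lines. By contrast, the lineage term of the same fit passed for 358 genes.

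The smallest adjusted p was 0.116 and was shared by PCBD1, SPRY2 and SPART. The genes described next are the 12 in each direction with the smallest p among those that differed by at least 1 log2 unit and whose 3 resistant lines all lay on the same side of all 5 sensitive lines. That criterion was met by 41 higher genes (0.349% of those tested) and 98 lower genes (0.833%), and since it chose the genes, their separation is a description. For PCBD1, SPART, HOMER2, SPATS2L, ADORA2B and THORLNC all 5 sensitive lines lay at or below 4.98. The medians of their arrays over all probe sets were 5.15 to 5.37. These genes thus passed the filter only through the 3 resistant lines, and their separation followed largely from the filter. With a filter of 6 of the 8 lines, which leaves them out, the smallest adjusted p in limma was 0.401. The adjusted p of the 24 genes ran from 0.116 to 0.408, and where it is not repeated below it was in that range.

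PCBD1 had the smallest unadjusted p of all genes. It encodes an enzyme that recycles tetrahydrobiopterin, a pterin cofactor related in structure to folate. Its log2 level was 7.13 in Nalm16, 6.18 in HPB-ALL and 7.34 in Jurkat, against 4.0 in Nalm6, REH, ALL-SIL and TALL-1 and 4.05 in P12-ICHIKAWA. All 5 sensitive lines were thus at the floor and all 3 resistant lines well above it, in both lineages. The difference was 2.88 (SE 0.287, limma adjusted p = 0.116), with 2.74 within T-ALL and 3.13 within BCP-ALL. The intermediate lines all had the gene on, between 5.81 in Molt4 and 7.90 in RS4,11, so the gene was off in the 5 sensitive lines alone. Against all 10 other lines the difference was 1.59 and did not reach an unadjusted p of 0.05.

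SPART encodes spartin, a protein of endosomes and lipid droplets that is mutated in a hereditary spastic paraplegia. It was 6.41 in Nalm16, 8.39 in HPB-ALL and 7.53 in Jurkat, and 4.04 to 4.19 in the 5 sensitive lines. The difference was 3.30 (SE 0.364, adjusted p = 0.116). The intermediate lines fell into the same pair of states, at the floor in 697 (4.02) and CCRF-CEM (4.16) and on in Nalm30 (7.15), Molt4 (8.03) and RS4,11 (8.30). Of its 4 probe sets 3 were higher in the resistant lines, with differences from -0.19 to 3.30.

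HOMER2, SPATS2L and SPIRE1 followed the same form, near the floor in most sensitive lines. HOMER2, a scaffold of synaptic and calcium signalling proteins, was 9.46 in Nalm16, 5.78 in HPB-ALL and 6.76 in Jurkat against 4.06 to 4.57 in the sensitive lines, a difference of 3.09 (SE 0.571). SPATS2L was 8.84, 5.98 and 6.70 against 4.0 to 4.66 (2.87, SE 0.544). SPIRE1, an actin nucleator, was 7.16, 6.01 and 6.41 against 4.0 to 5.90 (2.09, SE 0.381). In HOMER2 and SPATS2L, Nalm16 stood clearly above the other resistant lines, whereas in SPIRE1 the 3 were close and REH came nearest to them from the sensitive side. All 3 genes were also on in most intermediate lines, and none reached an unadjusted p of 0.05 against all 10 other lines.

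LINC01296, a long non-coding RNA, was the one gene of the 12 that was high in the resistant lines alone. It was 7.29 in Nalm16, 10.28 in HPB-ALL and 10.59 in Jurkat, against 5.80 to 5.98 in the sensitive lines and 5.73 to 6.35 in the intermediate lines. The difference was 3.41 (SE 0.584), larger in T-ALL (4.53) than in BCP-ALL (1.39, interaction adjusted p = 0.00579, and 0.0322 with P12-ICHIKAWA and TALL-1 averaged).

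The other 6 higher genes differed by 1.09 to 1.64 and, apart from ADORA2B and THORLNC, were on in every line. RAB15, a small GTPase of endosome recycling, was 7.92 in Nalm16, 7.95 in HPB-ALL and 7.97 in Jurkat, an SD of 0.0284, against 5.87 to 6.87 in the sensitive lines (difference 1.41, SE 0.261). AVEN, an inhibitor of apoptosis that binds BCL-xL and APAF1, was 8.33, 8.32 and 8.13 against 6.39 to 7.69 (1.36, SE 0.278), with P12-ICHIKAWA and TALL-1 lowest. ADORA2B, the A2B adenosine receptor, was 5.51, 6.74 and 6.72 against 4.04 to 4.96 (1.64, SE 0.343), the BCP-ALL part being the smaller (0.83). LCMT2, which modifies phenylalanine tRNA, the zinc finger gene ZNF689 and the long non-coding RNA THORLNC differed by 1.09, 1.27 and 1.19. The 2 probe sets of LCMT2 gave 0.03 and 1.09.

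**Figure D1:**
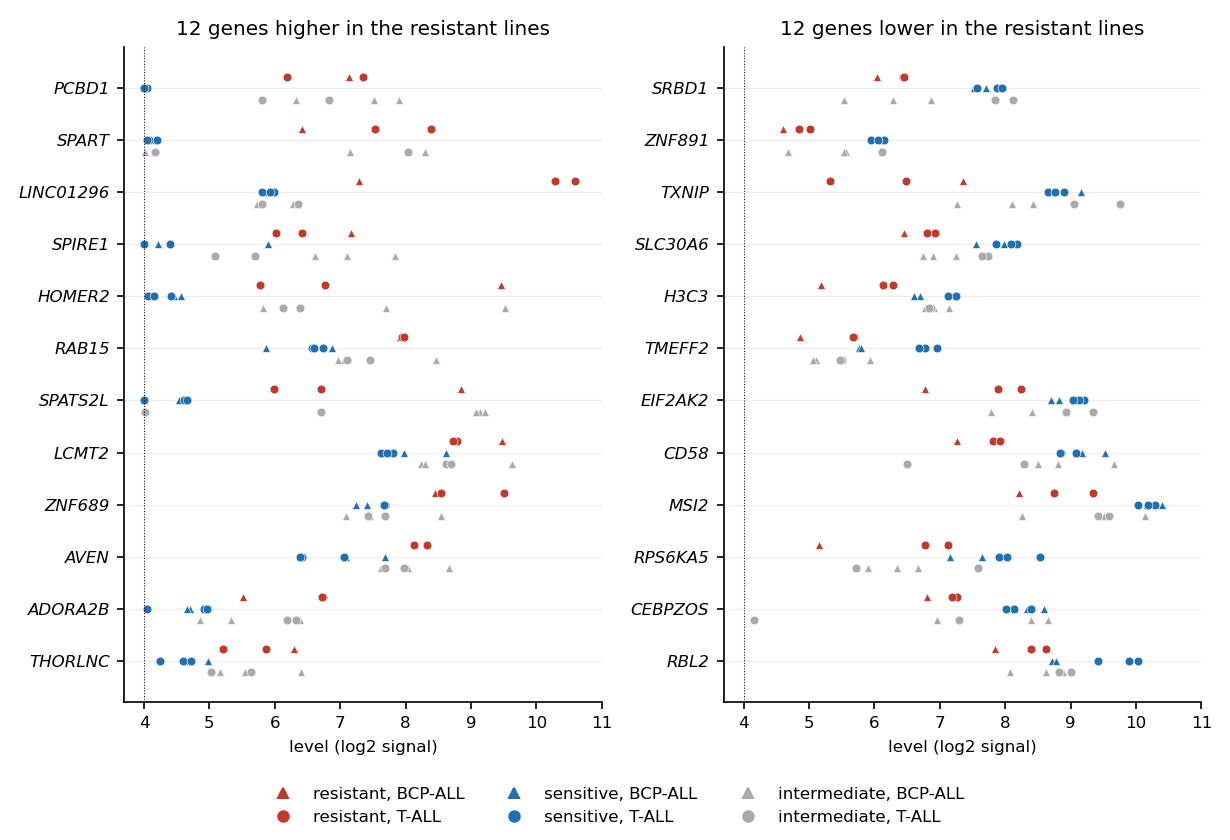
Level (log2 signal) of the 12 higher and 12 lower genes in all 13 lines, 1 point per line, with resistant lines in red, sensitive in blue, intermediate in grey, BCP-ALL as triangles and T-ALL as circles. The dotted line is the floor of 4. PCBD1 sits on the floor in the 5 sensitive lines only, at 4.0 to 4.05, while the intermediate lines of most genes spread over the range of both classes.

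Of the 12 lower genes, TXNIP had the largest difference. Its product binds and inhibits thioredoxin and holds back glucose uptake, and its transcription is driven by the glucose sensor MLXIP (MondoA). TXNIP was 7.35 in Nalm16, 5.33 in HPB-ALL and 6.49 in Jurkat, against a narrow 8.66 to 9.16 in the 5 sensitive lines. The difference was -2.41 (SE 0.366), with -2.86 in T-ALL and -1.61 in BCP-ALL, and all 3 of its probe sets ran the same way (-2.41 to -2.04). The intermediate lines lay between 7.27 in 697 and 9.76 in CCRF-CEM. Of the rest of this system, MLXIP was 7.06, 6.51 and 7.59 in the resistant lines against 7.26 to 8.75 (-0.91, SE 0.346, and -0.54 within T-ALL), lower at an unadjusted p under 0.05 but not with P12-ICHIKAWA and TALL-1 averaged, and its classes overlapped. ARRDC4, a paralog of TXNIP under the same sensor, did not go with it and was 8.87 in HPB-ALL, where TXNIP was lowest, 6.47 in Jurkat and 5.99 in Nalm16, against 4.46 to 6.68 (1.71, SE 0.791).

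The sequence before the TXNIP start is shown because MLXIP and its relative MLXIPL bind paired motifs of this kind. In RefSeq (GRCh38.p14, chr1:145996580-145996829, minus strand) the 250 bases before the start, 5′ to 3′, hold 1 pair of CACG motifs spaced by 7 bases, here in capitals.
TXNIP: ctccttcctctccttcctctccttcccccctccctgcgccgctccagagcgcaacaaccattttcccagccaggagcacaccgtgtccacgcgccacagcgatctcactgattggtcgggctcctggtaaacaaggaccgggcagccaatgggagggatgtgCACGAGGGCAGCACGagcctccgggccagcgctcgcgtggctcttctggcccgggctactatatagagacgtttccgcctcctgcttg
The search was for CACGNNNNNNNCACG or, on the other strand, CGTGNNNNNNNCGTG, and 183 of 35116 promoter windows of this length held either (0.521%). The ARRDC4 window held 0. A match describes the letters of the reference and not binding in these lines.

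An adhesion ligand and an RNA sensor were lower as well. CD58, the adhesion ligand through which leukemia cells engage CD2 on T and NK cells, was 7.26 in Nalm16, 7.82 in HPB-ALL and 7.92 in Jurkat against 8.84 to 9.52 (-1.42, SE 0.263), and all 5 of its probe sets were lower. In the intermediate lines CD58 ran from 6.50 in Molt4 to 9.66 in 697. EIF2AK2, the double-stranded RNA sensor PKR, was 6.77, 7.89 and 8.24 against 8.70 to 9.21 (-1.39, SE 0.248). Among regulators of growth and chromatin, MSI2, an RNA-binding protein of hematopoietic progenitors, was 8.21, 9.34 and 8.74 against 10.03 to 10.40 (-1.46, SE 0.272). Its probe sets were less uniform, and the one with the largest spread gave -1.11 and did not reach an unadjusted p of 0.05. RBL2, the pocket protein p130 of resting cells, was 7.84, 8.63 and 8.40 against 8.71 to 10.03 (-1.14, SE 0.224). RPS6KA5, a kinase of histone H3, and the histone gene H3C3, one of a family with near-identical copies, differed by -1.58 and -1.16. TMEFF2 and the zinc finger gene ZNF891 differed by -1.05 and -1.26, and the nearest lines of the classes were only 5.69 and 5.77 for TMEFF2. Of the 3 probe sets of TMEFF2, 2 were lower, with differences from -1.05 to 0.1. In the intermediate lines TMEFF2 ran from 5.06 in Nalm30 to 5.94 in RS4,11. CD58, RPS6KA5 and TMEFF2 did not reach an unadjusted p of 0.05 in limma against all 10 other lines.

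Of the 12 lower genes 4, SRBD1, SLC30A6, EIF2AK2 and CEBPZOS, share a place in the genome, the short arm of chromosome 2. SRBD1, which has an S1 RNA-binding domain, had the smallest unadjusted p of all lower genes. It was 6.04 in Nalm16, 6.44 in HPB-ALL and 6.46 in Jurkat against 7.52 to 7.96 in the sensitive lines (-1.43, SE 0.195). SLC30A6, a zinc transporter of the Golgi, was 6.45, 6.93 and 6.80 against 7.55 to 8.18 (-1.23, SE 0.203). Of its 3 probe sets 2 were lower, with differences from -1.23 to 0.17. CEBPZOS was 6.80, 7.27 and 7.19 against 8.01 to 8.60 (-1.20, SE 0.232). In each of these the resistant lines lay close together.

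Neighbours of these genes were lower too. When the tested genes were put in genome order, 16 of the 25 from DPY30 to DHX57 were lower at an unadjusted p under 0.05 and 0 higher, the most of all 11176 windows of 25 neighbours, whose median held 1. A stretch from DPY30 to PPP1R21, whose bounds were set after its values were seen, held 59 tested genes. Of these, 32 were lower (54.2%) and 1 higher, against 34 of the 702 other genes of chromosome 2 (4.84%). In 28 of the 59 (47.5%) the 3 resistant lines all lay below the 5 sensitive lines, against 236 of all tested genes (2.01%). The count of 32 was 28 without Nalm16, where 4.65% of all tested genes were lower. It was 30 after quantile normalization, where 6.0% of all were lower. Over the alternatives it ran from 18, within T-ALL with P12-ICHIKAWA and TALL-1 averaged, to 33.

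The stretch had a median below the sensitive lines in each resistant line. Against the sensitive lines of its own lineage, the median difference of its genes was -0.91 in HPB-ALL and -0.65 in Jurkat, whose other chromosome 2 genes had medians of 0.14 and 0.26. In Nalm16 it was -0.93, but there the rest of chromosome 2 was low as well (-0.59). In Nalm16, 67.8% of the stretch genes and 67.7% of the other chromosome 2 genes lay below the sensitive lines. These shares were 86.4% and 37.6% in HPB-ALL, and 79.7% and 33.6% in Jurkat. CCRF-CEM and Molt4, the intermediate T-ALL lines, were near 0 (0.08 and -0.09), 697 and RS4,11 were at -0.23 and -0.20, and Nalm30 was at -0.56. The rest of chromosome 2 was at -0.14 in 697, -0.12 in RS4,11 and -0.33 in Nalm30. It was at 0.19 in CCRF-CEM and 0.07 in Molt4. Members included BIRC6, a very large inhibitor of apoptosis (-1.44, SE 0.315), SPAST, the microtubule-severing spastin (-1.55, SE 0.465), CEBPZ (-1.71, SE 0.469), NDUFAF7, an assembly factor of respiratory complex I (-1.43, SE 0.292), LRPPRC, which stabilizes mitochondrial mRNAs (-1.03, SE 0.33), and MCFD2, a cargo receptor of the secretory pathway (-1.54, SE 0.356). Nalm16 carried much of several of these values, and within T-ALL they were -1.03 for BIRC6, -0.76 for SPAST, -0.92 for CEBPZ, -1.04 for NDUFAF7, -0.49 for LRPPRC and -0.94 for MCFD2.

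At the far end of the stretch lay 2 neighbours with a sharper loss in 1 line. FBXO11, an F-box protein that directs BCL6 to degradation, was at the floor of 4.0 in HPB-ALL, with 6.29 in Nalm16 and 7.09 in Jurkat, against 7.20 to 8.53 in the sensitive lines. MSH6, a mismatch repair protein that recognizes mispaired bases, was also 4.0 in HPB-ALL, with 8.59 in Jurkat and 9.55 in Nalm16, against 9.60 to 10.95. The classes did not overlap for either gene, yet the MSH6 difference of -2.88 (SE 1.1) came with HPB-ALL far below the other resistant lines. These levels are of 1 probe set per gene. Of the 4 probe sets of MSH6, 3 were lower and 1 was not (-2.88 to 0.30), and all 3 of FBXO11 were lower (-2.38 to -1.31). No other line had either gene within 1 log2 unit of the floor. These and the other genes of the stretch were named after their values were seen, apart from MSH6, of the DNA repair list, and the 4 genes above.

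**Figure D2:**
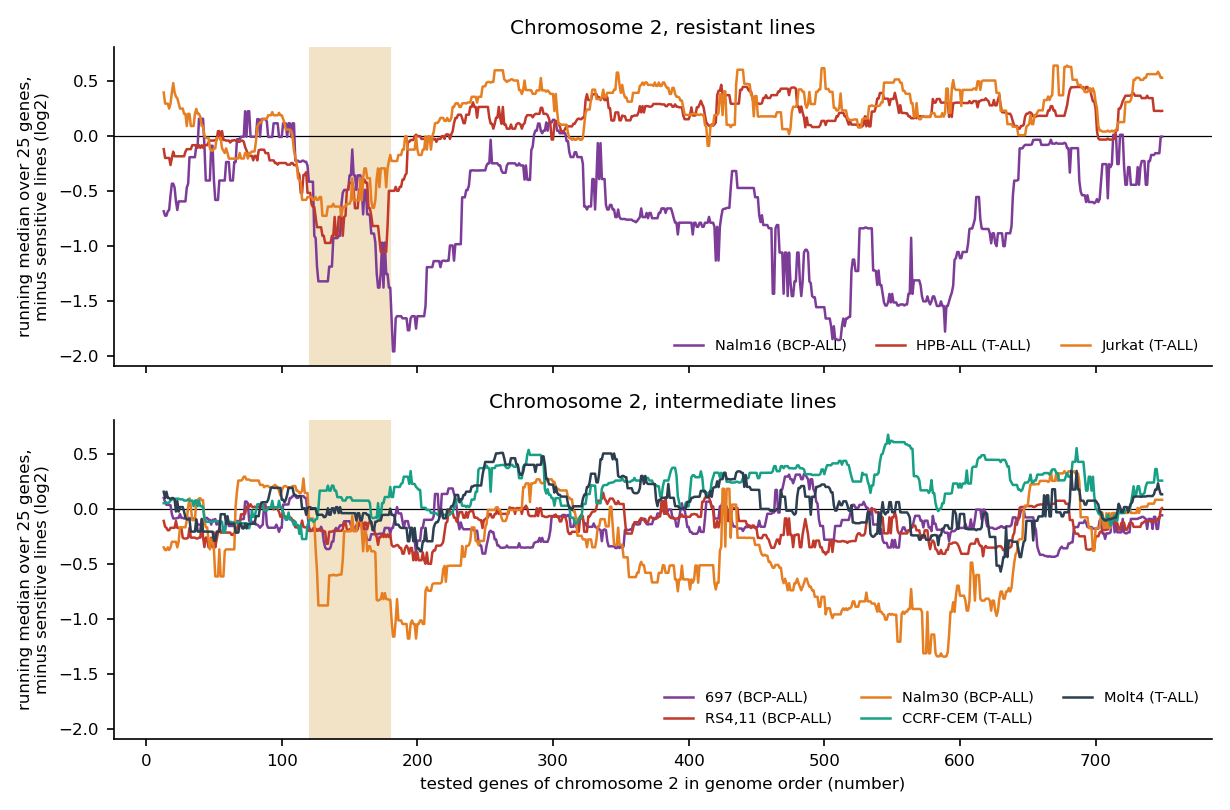
Running median over 25 neighbouring tested genes along chromosome 2 of the log2 level in 1 line minus the mean of the sensitive lines of its lineage, with resistant lines above and intermediate lines below. The shaded stretch runs from DPY30 to PPP1R21, where HPB-ALL and Jurkat dip to medians of -0.91 and -0.65 and are above 0 over most of the rest, while Nalm16 is low over much of the chromosome.

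The class difference was not one pattern shared by both lineages. Over all tested genes 45.3% had the same sign in T-ALL and BCP-ALL. At least 1 log2 unit apart in both lineages were 124 genes higher and 135 lower, and 294 genes differed by that much in opposite directions. A test of the interaction passed for 2362 genes (20.1%) at an adjusted p under 0.05, or 1032 (8.77%) with P12-ICHIKAWA and TALL-1 averaged. In 1872 of the 2362 the T-ALL difference lay above the BCP-ALL one, but after quantile normalization this held for 1277 of 2806. Since Nalm16 is the single resistant BCP-ALL line, what belongs to resistance in BCP-ALL and what to that line or its array cannot be told apart. For the same reason the interaction test took its spread from the other groups of lines and holds none among resistant BCP-ALL lines.

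**Figure D3:**
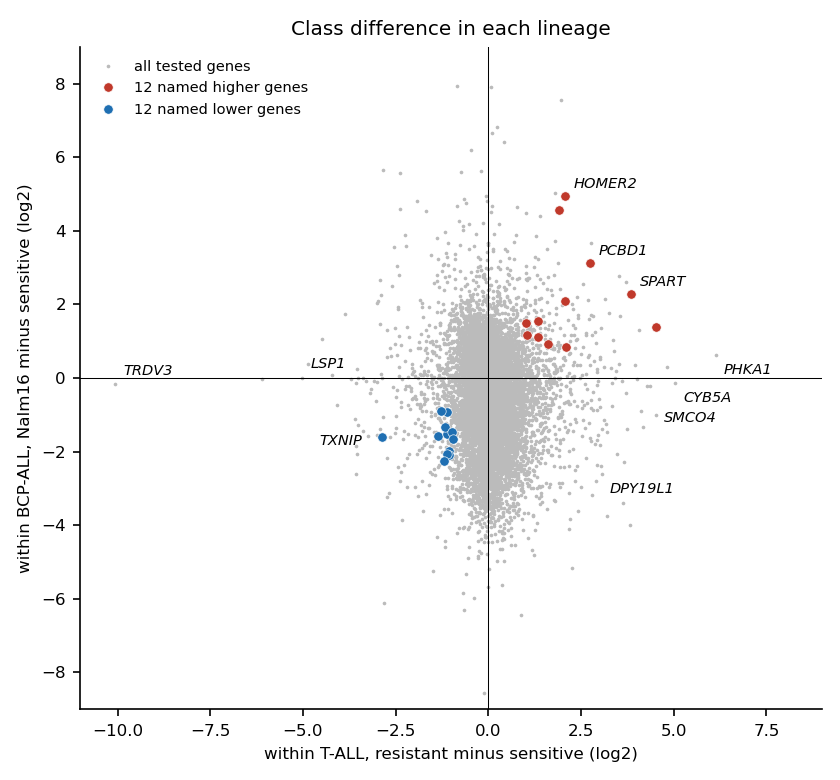
Class difference of each tested gene within T-ALL (x axis, HPB-ALL and Jurkat minus 3 sensitive lines) and within BCP-ALL (y axis, Nalm16 minus 2 sensitive lines), in log2 units. The 12 higher and 12 lower genes, chosen for separation in both lineages, lie in the upper right and lower left, while PHKA1, CYB5A, LSP1 and TRDV3 lie along the T-ALL axis.

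Within T-ALL, 11 genes were higher (0.0935%) and 2 lower (0.017%) at an adjusted p under 0.05, and with P12-ICHIKAWA and TALL-1 averaged the count was 2 higher (PHKA1 and LINC01296) and 1 lower (TRDV3). They are named because they passed, apart from the rule used above. PHKA1, a regulatory subunit of the kinase that activates glycogen phosphorylase, was 11.59 in HPB-ALL and 11.20 in Jurkat against 5.14 to 5.4 in ALL-SIL, P12-ICHIKAWA and TALL-1. The difference was 6.13 (SE 0.214, adjusted p = 0.00139, and 0.0306 with those lines averaged). The intermediate T-ALL lines were also high, at 11.18 and 11.08, and all BCP-ALL lines were low, at 4.75 to 5.56. TRDV3, a variable segment of the T-cell receptor delta locus, ran the other way. Of its 2 probe sets only 1 did so, and their differences over both lineages were -6.52 and 0.0. The one used here gave 15.69, 13.75 and 14.01 in the 3 sensitive T-ALL lines and 4.17 to 4.87 in the other 10 lines (-10.06, SE 0.578, limma adjusted p = 0.00886). LSP1, an actin-binding protein of leukocytes, was 9.46 to 9.99 in the same 3 lines and at most 6.17 elsewhere. The 3 sensitive T-ALL lines thus stood apart from the other T-ALL lines, whether resistant or intermediate, in TRDV3, LSP1 and PHKA1.

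The others higher within T-ALL were LINC01296, SPART, CYB5A, SMCO4, CYFIP1, TENT5A, ABHD17C, DPY19L1, MSX1 and FERMT2. CYB5A, the cytochrome b5 that passes electrons to lipid desaturases, was 9.91 and 8.25 against 4.0 to 4.12, but 4.14 in CCRF-CEM. The gene was on in every BCP-ALL line, with 9.34 in Nalm16 against 9.45 and 9.51 in REH and Nalm6, and its class effect differed between lineages (interaction 5.17, adjusted p = 0.0101). MSX1, a homeobox gene, was 6.88 and 6.65 against 4.12 to 4.35 in T-ALL but lower in Nalm16 (6.31) than in Nalm6 and REH (7.29 and 7.61). SPRY2, an inhibitor of receptor tyrosine kinase signalling, differed by 2.28 in T-ALL and 1.89 in BCP-ALL (both lineages 2.14, SE 0.226, adjusted p = 0.116). Its classes overlapped only because every BCP-ALL line lay above the T-ALL lines.

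The genes that handle MTX itself did not separate the classes. Of the 15 genes of uptake, efflux and glutamylation, 11 were tested, 0 were higher and 0 lower at an unadjusted p under 0.05 in limma, and differences ran from -0.48 to 0.35. SLC19A1, the reduced folate carrier, was 7.64 in Nalm16, 8.0 in HPB-ALL and 8.13 in Jurkat against 7.45 to 8.21 (0.04, SE 0.258). The SLC19A1 difference was 0.35 within T-ALL and -0.51 within BCP-ALL. Of its 7 probe sets 4 were higher, with differences from -0.36 to 0.24. The study reports a negative correlation of SLC19A1 expression with MTX resistance, which is another measure than the class difference. FPGS, the synthase that adds the glutamate tail, was 8.91, 7.92 and 8.57 against 7.42 to 8.91 (0.30, SE 0.297). GGH, which removes the tail, was 6.42, 8.24 and 8.97, and among the sensitive lines 8.42 to 9.02 apart from 4.24 in ALL-SIL (0.15, SE 1.18). Among the exporters, ABCC1 had a difference of 0.29 (SE 0.255) and ABCC4 one of 0.35 (SE 0.842), with ALL-SIL at the floor of 4.0. The smallest p belonged to ABCC10 (-0.48, SE 0.224), which was lower in HPB-ALL and Jurkat (6.22 and 6.39) than in the sensitive T-ALL lines (6.92 to 7.13) and alike in BCP-ALL.

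Of the folate cycle and glycine cleavage enzymes, 17 of the 20 measured were tested, and 1 was lower and 0 higher, with a median of -0.04 beside -0.06 for all genes. The lower one was DHFR2, a mitochondrial paralog of the target enzyme, at 6.0 in Nalm16, 8.56 in HPB-ALL and 8.2 in Jurkat against 7.90 to 9.05 (-1.12, SE 0.41, and -0.47 within T-ALL). TYMS, the thymidylate synthase, was 12.39, 12.22 and 12.62 against 11.98 to 12.26 (0.32, SE 0.198). SHMT2 and MTHFD2, enzymes of the mitochondrial arm, had differences of -0.11 and 0.00. MTHFD1, their trifunctional cytosolic counterpart, had 0.51 (SE 0.272). The other 3 genes of the list were not analysed here.

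These enzymes did show a gap between lineages, as did several other lists. The interaction passed for 7 of the 17 (41.2%, against 20.1% of all genes), and for 5 with P12-ICHIKAWA and TALL-1 averaged. MTR, the methionine synthase, was 6.13 in Nalm16 against 8.57 and 8.62 in Nalm6 and REH, while T-ALL differed by 0.09 (interaction 2.56, adjusted p = 0.00972). MTRR, its reductase, was 6.02 against 8.81 and 8.40, and GCSH, the hydrogen carrier of glycine cleavage, was 7.28 against 11.19 and 10.71. DLD, the dehydrogenase of the same complex, was 7.99 against 10.22 and 9.89. Conversely GLDC, the glycine decarboxylase, was 8.86 in Nalm16 against 4.81 and 5.66, and 8.97 to 9.61 in the 3 intermediate BCP-ALL lines (within BCP-ALL 3.62, interaction adjusted p = 0.0773). Nalm16 was thus low for GCSH and DLD and high for GLDC of the same complex, on an array where 29.3% of all tested genes were at least 1 log2 unit below the sensitive BCP-ALL lines. By that measure 7 of the 17 folate genes were low, beside 7 of 14 heat shock genes and 6 of 14 genes of caspases, death receptors and inhibitors of apoptosis. In the main fit the shares of these other lists in the interaction were also above that of the folate list. With P12-ICHIKAWA and TALL-1 averaged, the share of the heat shock list fell below that of the folate list. The share of the list with caspases stayed above it, so the gap was not particular to folate enzymes.

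**Figure D4:**
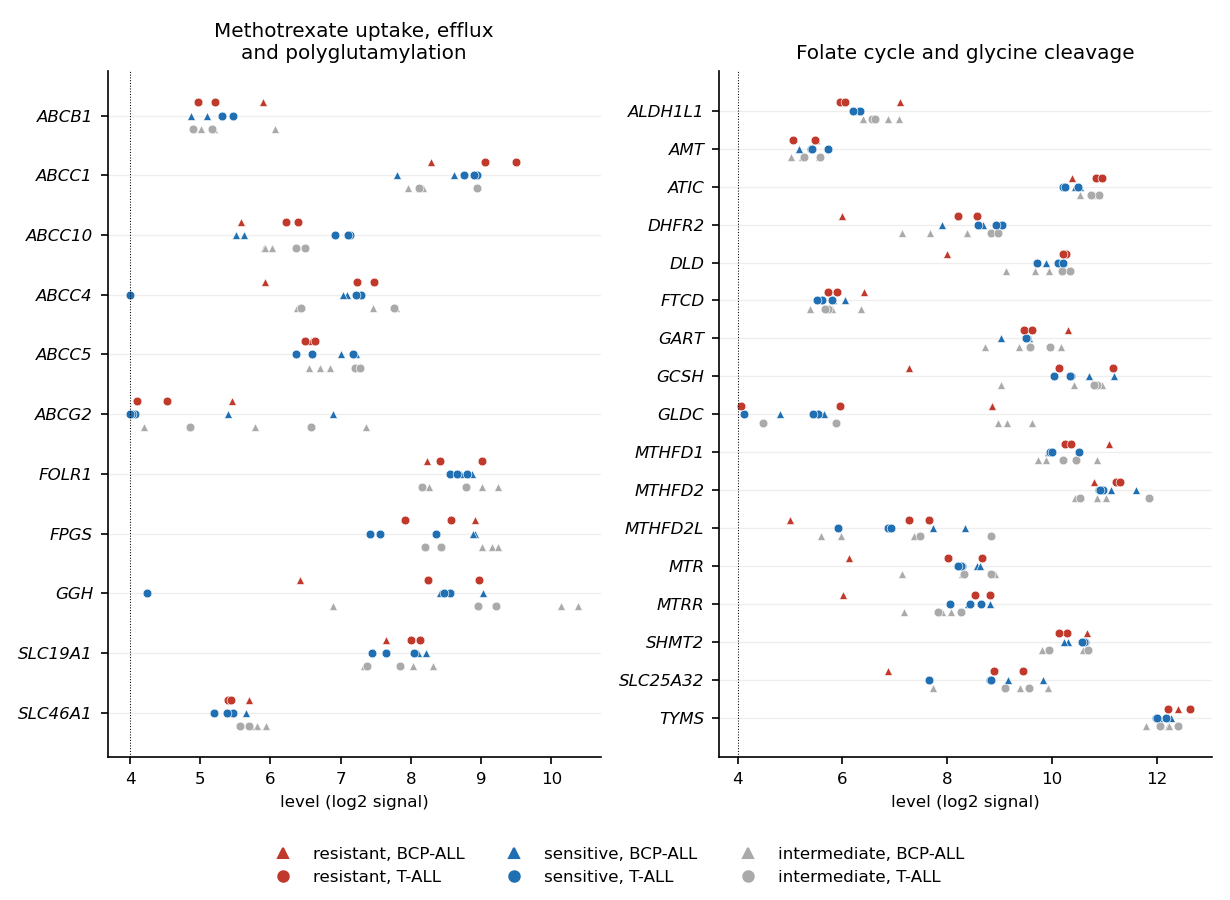
Level (log2 signal) of the tested genes of MTX uptake, efflux and glutamylation (left) and of folate and glycine cleavage enzymes (right), 1 point per line, with colours and shapes for class and lineage as in the legend. Resistant and sensitive points overlap for nearly all genes, and Nalm16, the red triangle, is lowest for DHFR2, MTR, MTRR, GCSH and DLD.

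Nucleotide synthesis and salvage differed by single genes. Of 12 purine synthesis genes 0 were higher or lower in limma at an unadjusted p under 0.05. PPAT, the first committed enzyme, came nearest and was 5.65 in Nalm16 and 8.42 to 9.66 in the other 7 lines of the comparison. Of 15 pyrimidine and deoxynucleotide genes 2 were higher. DCTD, the deaminase that supplies dUMP to thymidylate synthase, was 9.68, 9.76 and 10.06 against 8.10 to 9.49 (1.09, SE 0.333), with no overlap. CTPS2, a CTP synthase, was 7.90 in Nalm16 and 7.15 in HPB-ALL but 4.10 in Jurkat (1.89, SE 0.731). Of 15 salvage genes 3 were lower, NT5C3A, a pyrimidine nucleotidase (-1.20, SE 0.418), DCK, the deoxycytidine kinase (-0.75, SE 0.281), and HPRT1, which salvages hypoxanthine and guanine (-0.65, SE 0.246). Of the resistant lines DCK was low chiefly in Nalm16, at 8.80 against 10.24 to 10.70 in the sensitive lines. It was 10.45 and 10.08 in HPB-ALL and Jurkat, and 8.51 in the intermediate line Nalm30. Without Nalm16, 0 salvage genes were lower (NT5C3A -0.59, DCK -0.33 and HPRT1 -0.56). ADK, the adenosine kinase, was 8.29, 8.30 and 8.30 in the resistant lines and 8.40 to 9.50 in the sensitive lines (-0.61, SE 0.263).

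Of all 35 pathway lists, covering 521 tested genes, 15 genes were higher (2.88%) and 22 lower (4.22%), shares close to or below those of all genes. No list had more than 3 members called in one direction, and 11 had 0. In these lists "higher" and "lower" mean an unadjusted p under 0.05, and 0 members passed after adjustment. Of the 15 higher genes 8 were also called without Nalm16 and 4 with P12-ICHIKAWA and TALL-1 averaged, and these 4, ADORA2B, DCTD, PSMB5 and TP53I3, were called in both settings. Of the 22 lower genes 3 were also called without Nalm16 and 11 with the averaging, and TXNIP and MDH1 were called in both. The members that were called over both lineages are described by role, and every call outside those 6 genes was lost in 1 or both of these settings. In apoptosis, BAD and BID, which promote cell death upstream of the mitochondria, were higher by 0.77 and 0.74 (SE 0.277 and 0.293), neither of them called in either setting, and TP53I3, a p53 target, was higher by 1.33 (SE 0.283) with 7.70, 6.44 and 5.91 against 4.79 to 5.97. In the proteasome, the catalytic subunits PSMB5 and PSMB6 were higher by 0.79 and 0.62 (SE 0.269 and 0.26), out of 23 tested, and within T-ALL 8 of the 23 were higher at an unadjusted p under 0.05, against 784 of all tested genes (6.67%). In mitosis and protein folding, the checkpoint kinase BUB1 (-0.68, SE 0.27) and the chaperone HSPH1 (-0.76, SE 0.309) were lower, and ME3, a mitochondrial malic enzyme, was higher (1.69, SE 0.683). BUB1 was 8.11 in Nalm16 against 9.45 and 9.58 in HPB-ALL and Jurkat, HSPH1 was 8.39 against 10.64 and 10.36, and within T-ALL the differences were -0.26 and -0.28. Of the 5 probe sets of BUB1, 4 were lower (-1.0 to 0.29). In replication, ORC1, of the origin recognition complex, was lower by 0.82 (SE 0.25) with no overlap. RFC1, of the clamp loader, was lower by 1.27 (SE 0.529), among the resistant lines chiefly in Nalm16 (-0.30 within T-ALL). It was 6.17 there and 7.16 in the intermediate line Nalm30. Of the 3 probe sets of RFC1, 2 were lower (-1.27 to 0.06).

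In energy metabolism, MDH1 (-0.75, SE 0.227) and SDHD (-0.75, SE 0.28), a malate dehydrogenase and a subunit of succinate dehydrogenase, were lower, while ACO1, the aconitase that doubles as an iron sensor, was higher (0.59, SE 0.196) with 8.03, 8.07 and 8.15 against 7.27 to 7.73. None of 27 oxidative phosphorylation genes was called in limma at an unadjusted p under 0.05. In autophagy, MAP1LC3B and ATG5, which build the autophagosome, and LAMP2 of the lysosome membrane were lower by 0.82, 0.95 and 1.0, and SQSTM1, the cargo receptor that autophagy degrades, was higher by 0.79 (SE 0.271, 0.327, 0.374 and 0.281). MAP1LC3B was 7.93, 8.66 and 8.99 against 9.13 to 9.48, with no overlap. Of these 4, without Nalm16 none was called. Of the 4 probe sets of LAMP2, 2 were lower (-1.0 to 0.22). Of the 4 of SQSTM1, 3 were higher (-0.02 to 0.79). Of the chromatin enzymes, the DNA methyltransferase DNMT3B and the H3K36 methyltransferase SETD2 were lower by 0.90 and 1.11 (SE 0.321 and 0.424). SETD2 was 5.55 in Nalm16, 6.93 in HPB-ALL and 8.02 in Jurkat against 7.72 to 8.07, with -0.46 within T-ALL, and 0 genes of this list were lower without Nalm16. In growth control, PRKAG1, a subunit of the energy sensor AMPK, was higher by 0.80 and RICTOR, of mTORC2, lower by 1.31 (SE 0.303 and 0.513). Of the resistant lines RICTOR was low in Nalm16 alone, at 4.63. It was 8.57 in HPB-ALL and 7.88 in Jurkat, both inside the sensitive range of 7.4 to 8.70, and the T-ALL difference was -0.39. The intermediate line Nalm30 was low as well (5.31).

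Immune genes differed in a few places. NLRC5, the activator of MHC class I transcription, was 5.47, 6.11 and 5.92 against 6.47 to 7.66 (-1.27, SE 0.362), with no overlap, while none of the other 14 class I presentation genes was called. IFI44 was the single interferon-stimulated gene of 18 to be called (-1.31, SE 0.48). It was 4.05 in Nalm16, the T-ALL difference was -0.56, and its second probe set gave 0.08. IL7R, the interleukin-7 receptor, was 9.97 in HPB-ALL and 6.50 in Jurkat against 4.06 to 4.36 in the sensitive T-ALL lines, and alike in BCP-ALL (11.15 against 10.72 and 11.61). Over both lineages it differed by 2.57 (SE 1). ANXA1 had the same form, with 9.30 and 12.51 against 5.23 to 7.69 in T-ALL and 4.62 to 4.96 in these BCP-ALL lines. PTCRA, the pre-T-cell receptor alpha chain, was higher by 0.56 (SE 0.208), and CCR7, a receptor for homing to lymph nodes and the central nervous system, was lower by 1.11 (SE 0.445).

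Some markers of the lineages themselves also differed at an unadjusted p under 0.05, and 0 did after adjustment. Of 15 T-lineage genes 5 were higher and 1 lower, against 2.95% and 6.53% of all genes, among them CD2, which was 10.07 in HPB-ALL and 9.23 in Jurkat against 5.62 to 6.77 in the sensitive T-ALL lines and 4.04 to 4.39 in BCP-ALL (2.28, SE 0.657). CD3G was 9.02 and 10.11 against 8.01 to 8.23 in T-ALL, and ZAP70 10.49 and 9.94 against 8.63 to 8.87. BCL11B, a factor of T-cell commitment, was lower by 0.92 (SE 0.268). CD3G was no longer called with P12-ICHIKAWA and TALL-1 averaged, and without the lineage term 0 T-lineage or B-lineage markers were called. Of 10 B-lineage genes CD79B, of the B-cell receptor, was lower (-1.89, SE 0.36), at 8.73 in Nalm16 against 10.63 and 10.72 in Nalm6 and REH, and at 5.52 and 4.25 against 6.38 to 7.36 in T-ALL. Of the 3 probe sets of CD79B, 2 were lower (-1.89 to 0.49). How far the stage of T-cell development differed with the class, and its part in the class differences, was not tested. Of the myeloid, NK cell, erythroid and stromal markers above the filter, 0 of 8 were called in limma at an unadjusted p under 0.05.

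**Figure D5:**
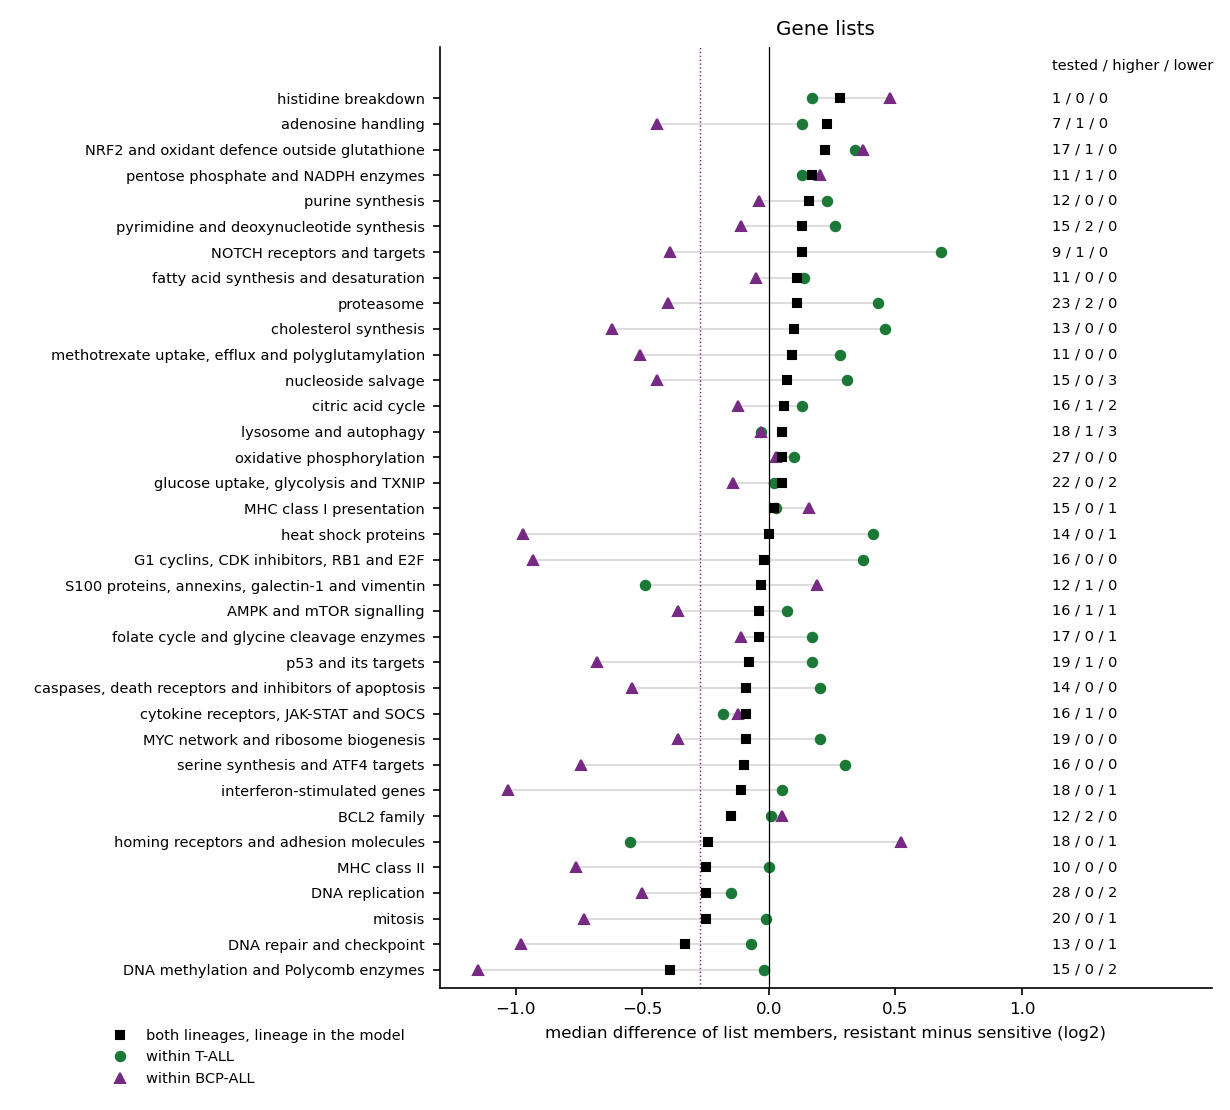
Median difference (log2, resistant minus sensitive) of the tested members of each of the 35 pathway lists, over both lineages (squares), within T-ALL (circles) and within BCP-ALL (triangles), with the number tested, higher and lower at an unadjusted p under 0.05 at right. The dotted line is the median of all tested genes within BCP-ALL, -0.27, and most triangles lie to the left of their circles.

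The intermediate lines were set against the midpoint between the class means for the 24 genes. Nalm30 lay on the resistant side for 20 of 24, CCRF-CEM and Molt4 for 12 each, and 697 and RS4,11 for 10 each. Nalm30 resembled Nalm16 in the whole profile, with a correlation of 0.959, and shared its levels of HOMER2 (9.52 and 9.46), MSI2 (8.26 and 8.21) and SRBD1 (5.54 and 6.04). It parted from Nalm16 in LINC01296 (6.34 against 7.29), H3C3 (6.92 against 5.18), CD58 (8.50 against 7.26) and TXNIP (8.11 against 7.35), which were nearer to their sensitive levels in Nalm30.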

How the data were processed

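RNA of 13 untreated ALL cell lines was hybridized to 1 HG-U133 Plus 2.0 array each. The authors deposited log2 values made with the iterPLIER algorithm, with 16 added to each signal before the log, in Affymetrix Expression Console, whose version and scaling between arrays are not given in the sources used here. Of 42450 probe sets, 38125 carried 1 gene symbol, 1742 several and 2583 none in the platform annotation. Each of 18568 genes took its probe set with the highest mean. Genes above the median of the array in at least 3 of the 8 lines were tested with limma 3.58.1 in R 4.3.3, with class and lineage as terms, empirical Bayes moderation and Benjamini-Hochberg adjustment at 0.05. An interaction term gave the class effect within each lineage. Resistant BCP-ALL holds 1 line, so fits of the interaction and within BCP-ALL used the spread pooled over the other groups of lines. Lists were described by members at an unadjusted p under 0.05, with no test of the list. Genes were named as the 12 per direction described above, up to 4 members per list by p, and any member of the MTX and folate lists, without sex-linked markers. Members and lists were chosen with earlier results of these data known. Gene order and names came from RefSeq (GRCh38.p14). The fit was tested on simulated data. Tables and figures were made in Python 3.11.15 (numpy 2.4.6, pandas 2.3.3, matplotlib 3.10.9). Alternatives covered normalization, filters, probe set, variance model, lineage term, comparison group and each line left out. With 1 array per line, p-values measure the spread between lines, and their number limits the precision. Those of the interaction and within BCP-ALL measure no spread among resistant BCP-ALL lines.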

Additional observations from a re-analysis of the deposited data

Results flagged for a closer look

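For PCBD1 the level in P12-ICHIKAWA, 4.05, lay away from the other sensitive lines, all at the floor of 4.0. For SPIRE1 the level in REH, 5.90, lay away from the other sensitive lines, which ran from 4.0 to 4.39. Chance alone would flag some groups of this kind, at a rate not measured here, and 24 genes were looked at. For PCBD1 the other sensitive lines sat at the floor, where even a very small gap is flagged, and 4.05 is still at the floor in practice. The class effect of 3 of the 24 genes differed between lineages in limma's interaction test. For LINC01296 it was 3.14 larger in T-ALL (adjusted p = 0.00579), and for HOMER2 and SPATS2L it was smaller in T-ALL, by -2.88 (adjusted p = 0.0165) and -2.65 (adjusted p = 0.0256). With P12-ICHIKAWA and TALL-1 averaged the adjusted p was 0.0322, 0.0506 and 0.0729. Over all genes the same test passed for 2362.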

How the results depend on the processing

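Of the 448 values of the 24 genes under the alternatives, 435 kept their direction and an unadjusted p under 0.05, 13 kept the direction only and 0 reversed. The filter of 6 of 8 lines left out PCBD1, SPART, SPIRE1, HOMER2, SPATS2L, ADORA2B, THORLNC and ZNF891, which have no value there. They had 18 alternatives each and the others 19. The fits within T-ALL and without Nalm16 give identical values, so they count as 2 alternatives but are 1 result. The genes were chosen by small p and separation in the same arrays, so the share kept is no separate measure of their stability. The number of genes at an adjusted p under 0.05, 0 over both lineages, was 13 within T-ALL, 3 within T-ALL with P12-ICHIKAWA and TALL-1 averaged and 2999 within BCP-ALL, and leaving out 1 line gave 0 to 13, with 13 without Nalm16 and 1 without REH, HPB-ALL or Jurkat. The 347 higher genes became 572 after quantile normalization, 699 with no filter, 201 with P12-ICHIKAWA and TALL-1 averaged, 195 without lineage, 784 within T-ALL, 432 there with the 2 averaged, 1333 within BCP-ALL, 180 against all 10 other lines and 199 to 784 with 1 line left out (784 without Nalm16, 205 without P12-ICHIKAWA, 199 without TALL-1). The 768 lower genes became 305 without lineage, 247 within T-ALL with the 2 averaged, 3230 within BCP-ALL and 499 (without REH) to 1184 (without Jurkat). The interaction count of 2362 was 1032 with the 2 averaged, ran with 1 line left out from 923 (without P12-ICHIKAWA) to 2567 (without HPB-ALL), and was highest, 2964, with no filter. It could not be fitted without Nalm16. Of the list genes, 15 higher became 24 with no filter, 9 without lineage, 27 after quantile normalization, 5 with the 2 averaged and 35 without Nalm16, and 22 lower became 14 without lineage and 14 with the 2 averaged. The chromosome 2 stretch gave 18 lower genes within T-ALL with the 2 averaged. The next list covers only the genes looked at singly for this report, and over all tested genes 294 differed by at least 1 log2 unit in opposite directions between lineages. Of those single genes at an unadjusted p under 0.05 over both lineages or within BCP-ALL, the sign turned within BCP-ALL for CDKN1A (-1.19), IL7R (-0.02), ANXA1 (-0.22), CYB5A (-0.14), MSX1 (-1.14), DPY19L1 (-2.60), SMCO4 (-1.01) and PPP1R21 (0.33). The cause of these shifts was not tested. Counts within BCP-ALL and of the interaction rest on 1 resistant BCP-ALL line, with the spread taken from the other groups of lines. The counts for lists, the stretch and T-ALL with averaging were chosen after seeing the data. No paired analysis was possible because each line was measured once and line numbers pair no samples. Signal near the floor limits what can be said of genes that are off.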

Other observations

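Chromosomes differed in how far Nalm16 lay below the sensitive BCP-ALL lines. Its median difference was -1.11 on chromosome 13, -0.99 on chromosome 4 and -0.61 on chromosome 2, and 0.15, 0.23 and 0.26 on chromosomes 14, 21 and 20. Nalm30 had the same lowest and highest chromosomes, with -0.62 on chromosome 13, -0.57 on chromosome 4 and 0.28 on chromosome 20. In Jurkat the medians of all chromosomes lay between -0.05 and 0.34, and in HPB-ALL between -0.28 and 0.21.

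Zinc finger genes named ZNF and a number, a set chosen after its values were seen, were often lower in the resistant lines. Of 367 tested, 77 were lower (21.0%, against 6.53% of all genes) and 8 higher, with a median of -0.39, which was -0.17 in T-ALL and -0.76 in BCP-ALL. Without Nalm16, 36 were lower (9.81%, against 4.65% of all genes). After quantile normalization 66 were lower (18.0%, against 6.0%). These genes include clusters of near neighbours with similar sequences on chromosome 19, where 13 of 25 neighbouring genes from ZNF101 to LINC02987 were lower, and 4 without Nalm16.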
